A study of Homo sapiens and Mus musculus with 19 samples.

Results

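The genes of the BAP1 deubiquitinase complex, also called PR-DUB, were followed in the RNA that stays bound to chromatin (chromatin-associated RNA, caRNA). They were BAP1, ASXL1, ASXL2, ASXL3, FOXK1, FOXK2, HCFC1, OGT and KDM1B, and in mouse the genes of the same symbols. The 9 genes were chosen by name as the catalytic subunit and its partners, without the methyl-binding members MBD5 and MBD6, by a rule that used no measured value. All 9 were found among the 58721 gene rows of the K562 tables and the 54446 gene rows of the mouse embryonic stem (mES) cell tables. All 9 also passed the filter on low counts in both cell types, which left 26023 human and 27603 mouse genes to test.

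PR-DUB removes the single ubiquitin that Polycomb repressive complex 1 (PRC1) places on a lysine near the end of histone H2A. BAP1 is the hydrolase, and it is active only with one of the ASXL proteins bound to it. FOXK1 and FOXK2 are forkhead transcription factors that bring BAP1 to DNA, HCFC1 is a chromatin scaffold, OGT adds O-GlcNAc sugars and also cuts HCFC1 to its mature form, and KDM1B (also called LSD2) demethylates histone H3. ASXL1, like TET2, is often mutated in myeloid leukaemia.

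The study asked how oxidation of 5-methylcytosine in caRNA by TET2, and its reading by MBD6 as part of PR-DUB, affect chromatin. K562, a human erythroid leukaemia line, was either TET2 WT or TET2 KO, and each genotype was given, by lentivirus and under puromycin, either shControl or shMBD6, the second directed at MBD6, with 3 libraries in each of the 4 groups. The TET2 KO line was made before the study, and the number of clones behind it is not given in the sources used here. mES cells, grown with LIF and 2 inhibitors on gelatin after passages to clear feeder cells, were transfected with control siRNA (siControl) or siRNA against Nsun2 (siNsun2), an RNA cytosine methyltransferase, with 3 libraries each. The labels do not say how many siRNAs were used. The study describes its genome-wide data as made from biological replicates, but the labels do not say that libraries of a group came from separate cultures, and where they did not, p-values measure only a technical spread.

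Gene counts per library ran from 52158403 to 102070223 in K562 and from 58078323 to 66832780 in the mES cell siRNA libraries, so sampling error was small for every member except ASXL3 in K562. Of 6 mES cell markers 5 were at 1 CPM or more in both groups, led by Esrrb, and Sox2, which lies inside Sox2ot on the same strand, had 0 counts. Of 8 K562 markers 6 or 7 reached 1 CPM in every group, led by TFRC, and HBG2 had 0 counts. Nsun2 fell from 129.5 ± 3.45 to 102.5 ± 3.55 CPM (SD, n = 3) with siNsun2, a log2 change of -0.34, at a scaling where the median of well-expressed genes was -0.21 and 16.0% of them had a more negative value. MBD6 fell from 41.5 ± 2.55 to 28.0 ± 2.71 CPM with shMBD6 in TET2 WT cells. In TET2 KO cells it was 30.3 ± 0.750 CPM with shControl and, under the shMBD6 label, 34.4 ± 3.86 CPM (log2 change 0.19, edgeR adjusted p = 0.0574). The caRNA of MBD6 thus does not bear out the label of the last group, whose libraries are called by it only. Under shControl MBD6 was also lower in TET2 KO than in TET2 WT (log2 change -0.46, edgeR adjusted p = 6.5e-06). MBD6 caRNA is therefore a weak check of the knockdown in either genotype. TET2 RNA was not called between the genotypes under shControl (log2 change 0.09, adjusted p = 0.0735) and was lower in TET2 KO under shMBD6 (121.5 and 94.8 CPM, -0.36, adjusted p = 3.9e-09), and counts over the whole gene do not test a deletion of part of it. CPM, the usual count unit relative to the total of the library, is given here after TMM scaling, which sets libraries to a common scale by the bulk of genes. In bulk libraries, fewer cells that make an RNA and less RNA per cell cannot be told apart.

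OGT had the highest level per length of the 9 genes in both cell types, and ASXL3 the lowest. Counts covered introns as well as exons, so levels between genes are given as CPM per kb of gene span. In TET2 WT shControl K562 cells the level was 26.5 ± 0.137 CPM per kb for OGT (ENSG00000147162, X chromosome, bases 71533087 to 71575892, plus strand, GRCh38). HCFC1 (ENSG00000172534, X chromosome, 153947557 to 153971818, minus strand) followed at 4.13 ± 0.217 CPM per kb, 6.42 times lower than OGT. Thus both enzyme and substrate of the O-GlcNAc step led the order per kb of span. ASXL1 (chromosome 20, 32358330 to 32439319, plus strand) at 3.17 ± 0.0282 and BAP1 (ENSG00000163930, chromosome 3, 52401008 to 52410008, minus strand) at 3.14 ± 0.135 CPM per kb came next. The libraries of these 2 genes overlapped, so their order was not resolved. ASXL2 (2.08 ± 0.0105 CPM per kb), FOXK2 (1.86 ± 0.0624), FOXK1 (1.49 ± 0.103) and KDM1B (0.878 ± 0.0111) then followed in an order in which no neighbours overlapped. ASXL3, the paralogue known mainly from the nervous system, stood at 0.00518 ± 0.00245 CPM per kb, with 41 to 118 counts per library. Per kb of exon the order changed: OGT remained first at 115.8 CPM per kb of exon and FOXK2 was second at 23.2 with its libraries overlapping ASXL2's. HCFC1, at 11.1, came after ASXL2 (22.7) and ASXL1 (18.8). BAP1, whose gene is 52.4% exon, was at 5.99 and fell to the place before ASXL3. FOXK2 overlaps WDR45B on the opposite strand by 30101 bases, and counting was by strand; the genes that lie inside ASXL2 and FOXK2 on the same strand had 0 counts.

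In siControl mES cells the order by gene span was Ogt, Hcfc1, Asxl2, Asxl1, Foxk2, Bap1, Kdm1b, Foxk1 and Asxl3, from 9.04 ± 0.118 CPM per kb for Ogt down to 0.222 ± 0.00959 for Asxl3. Only Hcfc1 (5.96 ± 0.0558) and Asxl2 (5.83 ± 0.0982) overlapped between neighbours. The composition of the paralogue pairs differed between the cell types. By CPM per kb of span, ASXL3 made up 2.00% ± 0.0622 of the ASXL level in mES cells and 0.0986% ± 0.0463 in K562. FOXK1 made up 15.0% ± 0.132 of the FOXK level in mES cells and 44.5% ± 0.957 in K562. The species, annotation and cell type all differ between these 2 sets of libraries and cannot be told apart.

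**Figure D1:**
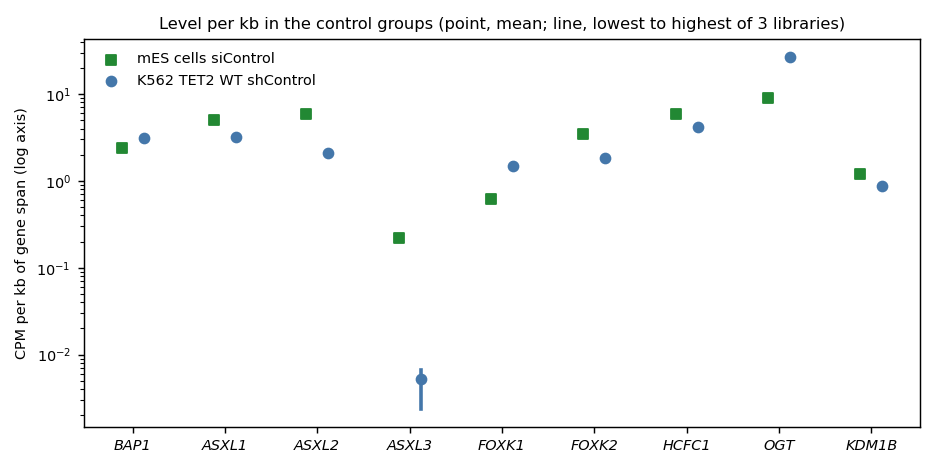
Level of each PR-DUB gene in CPM per kb of gene span (log axis) in siControl mES cells (squares) and in TET2 WT shControl K562 cells (circles), mean of 3 libraries with a line from the lowest to the highest. OGT stands highest in both, at 9.04 and 26.5 CPM per kb, and ASXL3 lowest, at 0.222 and 0.00518.

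The promoters of OGT and FOXK2 are shown because these genes were at the 2 ends of the responses in K562: OGT, like BAP1 and HCFC1, passed the test in 5 of 5 comparisons (interaction included) and FOXK2 in 1 of 5. The sequences are RefSeq promoters on GRCh38.p14, 250 bases before to 50 after the start, 5′ to 3′ on the gene's strand, with CpG dinucleotides in capitals.
OGT, chrX:71532854-71533153, plus strand: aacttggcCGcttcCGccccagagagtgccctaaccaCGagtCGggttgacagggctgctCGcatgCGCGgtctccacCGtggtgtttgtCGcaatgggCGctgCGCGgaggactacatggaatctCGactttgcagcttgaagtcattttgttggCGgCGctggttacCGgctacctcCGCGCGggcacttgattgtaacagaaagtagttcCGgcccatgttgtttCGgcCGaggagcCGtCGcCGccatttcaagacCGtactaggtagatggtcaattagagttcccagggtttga
FOXK2, chr17:82519482-82519781, plus strand: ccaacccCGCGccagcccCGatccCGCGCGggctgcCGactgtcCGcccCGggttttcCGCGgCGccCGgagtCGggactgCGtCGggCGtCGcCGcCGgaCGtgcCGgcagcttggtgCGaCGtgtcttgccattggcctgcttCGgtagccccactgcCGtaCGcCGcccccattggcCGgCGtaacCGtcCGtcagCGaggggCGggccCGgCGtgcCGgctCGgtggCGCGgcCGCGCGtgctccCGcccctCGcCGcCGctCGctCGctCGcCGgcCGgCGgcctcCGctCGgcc
OGT's window holds 26 CpG dinucleotides and FOXK2's holds 55, against a median of 14 over 35114 promoter windows in the table. FOXK1's window also holds 55, and FOXK1 was called in 4 of 5 comparisons. A relation of CpG content to the responses was not tested. Of the 9 genes 7 had an entry, with 10 windows in all. BAP1 and HCFC1 were not matched. The forkhead motif GTAAACA, which FOXK proteins are known to bind, was in the windows of 0 of these 7 genes on either strand and in 3.42% of all windows. The ETS motif CCGGAAG was in those of 2 genes (ASXL1 and ASXL2) and in 10.3% of all windows, and the SP1 motif GGGGCGGGG was in those of 2 (ASXL1 and FOXK1) and in 15.7%. The CCAAT box was in those of 2 (ASXL2 and FOXK2) and in 34.6%, the E-box CACGTG in that of FOXK1 and in 7.26%, and the CREB motif TGACGTCA in that of ASXL3 and in 1.85%. None of these letters was found in the OGT or KDM1B windows. Both strands were searched for each motif, and the letters of none lie within those of another.

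siNsun2 was compared with siControl to ask what loss of this methyltransferase does to the caRNA of PR-DUB genes. Of the 9 genes 7 were called at an adjusted p under 0.05, 1 higher and 6 lower. Over all genes tested 50.2% were called, 25.8% higher and 24.3% lower, and the share was 87.2% among well-expressed genes (mean log2 CPM at least 5), so the members' count does not stand out from well-expressed genes. The median log2 change over the 9 was -0.11, beside 0.14 over all genes tested and -0.21 over genes at log2 CPM 5 or more. Bap1 was the member with the most negative value: 20.1, 21.3 and 20.2 CPM in siControl and 16.7, 16.1 and 16.2 CPM in siNsun2. The 2 groups did not overlap. By edgeR's quasi-likelihood test, with p-values adjusted over all genes by Benjamini-Hochberg, the log2 change was -0.33 (SE 0.07, adjusted p = 5.57e-05).

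Among its ASXL cofactors, Asxl3 rose and Asxl2 fell. Asxl3 was at 39.3, 41.0 and 42.9 CPM in siControl and at 56.6, 52.0 and 52.4 CPM in siNsun2, with every siNsun2 library above every siControl library. Its log2 change was 0.39 (SE 0.05, adjusted p = 8.57e-12), and it was called higher under each of the 14 fits tried. Asxl2 was at 458.5, 465.4 and 474.2 CPM in siControl and at 401.7, 387.9 and 401.3 CPM in siNsun2, again without overlap (log2 change -0.23, SE 0.02, adjusted p = 1.48e-15). Asxl1 was between 289.1 and 295.4 CPM in siControl and between 285.9 and 290.4 CPM in siNsun2 (log2 change -0.02, adjusted p = 0.585). The Asxl1/Asxl2 count ratio, which no scaling can alter, was 0.637, 0.621 and 0.623 in siControl and 0.712, 0.749 and 0.724 in siNsun2. All 3 siNsun2 libraries thus lay above all 3 siControl libraries, a difference of 0.22 on the log2 scale (exact permutation test, two-sided, p = 0.1, the smallest that 3 against 3 allows, and 0.156 after adjustment over 28 ratio tests). Asxl3's share of the ASXL level by span went from 2.00% ± 0.0622 to 2.83% ± 0.130.

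Ogt was at 396.9, 398.1 and 406.5 CPM in siControl and at 357.4, 353.3 and 353.6 CPM in siNsun2 (log2 change -0.18, SE 0.02, adjusted p = 1.39e-10). Its substrate Hcfc1 was at 139.0 to 141.6 and at 124.9 to 137.3 CPM (-0.09, adjusted p = 0.00682), and this call was lost without siNsun2 replicate 1 (-0.06) and with a minimum count of 50 (-0.04). Foxk2 went from 173.0 ± 2.13 to 160.4 ± 1.88 CPM (-0.11, adjusted p = 0.000464), whereas Foxk1 was at 36.4 to 37.7 and at 34.8 to 41.0 CPM, with overlap, and was not called (0.05, adjusted p = 0.393). Kdm1b went from 49.8 ± 1.70 to 41.5 ± 2.50 CPM without overlap (-0.26, SE 0.05, adjusted p = 1.25e-06).

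The directions in mES cells rest on the scaling. The share of reads outside genes was 19.9% ± 0.345 in siControl and 29.4% ± 0.466 in siNsun2, and its part in these values was not tested. When scaled by total gene counts, 5 members were called higher and 1 lower, and with TMM on genes at log2 CPM 5 or more 5 were called higher and 0 lower. Under both of these scalings Foxk2 (0.07 and 0.10) and Hcfc1 (0.09 and 0.12) were called higher instead of lower, and Ogt was at 0.01 and 0.03 without a call. Asxl1 (0.17 and 0.19) and Foxk1 (0.24 and 0.26), which were not called with TMM, were called higher. Bap1 (-0.15 and -0.12) and Kdm1b (-0.08 and -0.05) stayed below 0 without a call under either. Asxl2 stayed below 0 as well, with a call at -0.05 and none at -0.02. Relative to the median of well-expressed genes (-0.21), Bap1, Kdm1b and Asxl2 were lower and the other 6 members higher. The 17 well-expressed genes whose start lies within 2 Mb of Bap1 had a median log2 change of -0.26, near that median of -0.21. All 74 genes tested in that window had a median of 0.34. The ratio of Bap1 to the summed ASXL counts was 0.0254, 0.0267 and 0.0248 in siControl and 0.0225, 0.0221 and 0.0218 in siNsun2, so the 2 groups did not overlap on a scale-free measure either (difference -0.21 on the log2 scale, exact permutation p = 0.1, adjusted 0.156).

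**Figure D2:**
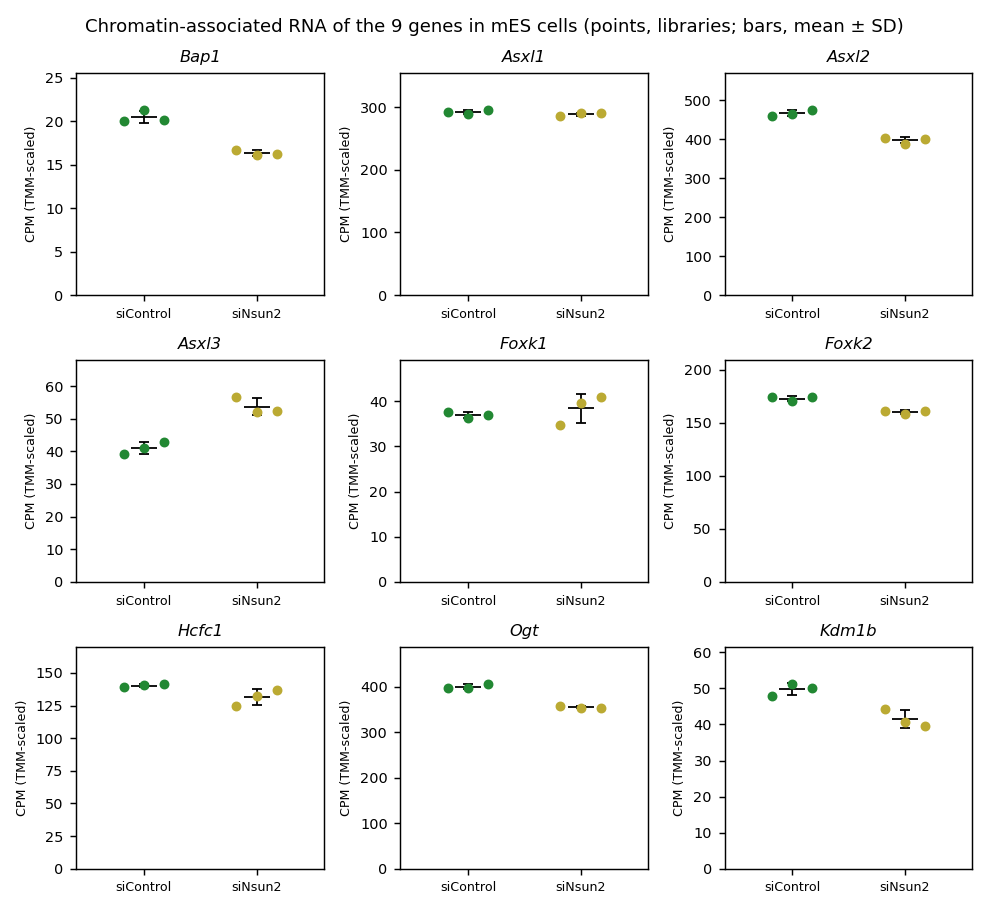
CPM of each gene in the 3 siControl and 3 siNsun2 mES cell libraries (points), with the mean and SD (bars), on axes that start at 0. The groups do not overlap for 7 of the 9 genes, beside 56.7% of all genes tested and 88.0% of well-expressed genes, with Asxl3 higher in siNsun2 and the other 6 lower at this scaling.

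In K562, shMBD6 in TET2 WT cells was examined first, since MBD6 is itself a partner of PR-DUB. BAP1 and OGT were lower with shMBD6, as were ASXL1, ASXL2 and FOXK2, and HCFC1 was higher. Thus 6 of the 9 were called, 1 higher and 5 lower, beside 42.5% of all genes tested, 17.7% higher and 24.7% lower. Among genes at log2 CPM 5 or more 77.4% were called. The libraries of the 2 groups did not overlap for 6 of the 9, beside 57.7% of all genes tested and 80.5% of well-expressed genes. The median log2 change of the 9 was -0.12, beside 0.10 over all genes and -0.17 over well-expressed genes.

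BAP1 was at 29.5, 28.2 and 27.1 CPM in TET2 WT shControl and at 20.7, 18.7 and 19.3 CPM in TET2 WT shMBD6. Each shMBD6 library was below each shControl library. The log2 change was -0.53 (SE 0.08, adjusted p = 3.25e-06), and it was called under 15 of 15 fits, between -0.57 and -0.36. OGT was at 1139, 1139 and 1129 CPM in shControl and at 962.5, 958.9 and 960.3 CPM in shMBD6, without overlap (-0.24, SE 0.02, adjusted p = 1.41e-11). ASXL1 went from 256.8 ± 2.28 to 208.9 ± 5.58 CPM (-0.30, adjusted p = 7.31e-10). This was the largest loss among the 3 ASXL genes. ASXL2 went from 300.7 ± 1.52 to 264.1 ± 8.74 CPM (-0.19, adjusted p = 1.57e-06), a call lost with TMM on well-expressed genes (-0.02) and with no filter (-0.08).

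HCFC1 was at 106.3, 97.6 and 96.8 CPM in shControl and at 117.0, 103.4 and 108.2 CPM in shMBD6. The groups overlapped, and the call (log2 change 0.13, SE 0.05, adjusted p = 0.0311) was lost without shControl replicate 2 or 3 or shMBD6 replicate 1 or 3 (0.08 to 0.14). FOXK2 went from 232.0 ± 7.80 to 213.7 ± 0.973 CPM (-0.12, adjusted p = 0.00273), and was called under 9 of 15 fits, with 0.05 and no call with TMM on well-expressed genes. FOXK1 (132.9 ± 9.18 and 140.2 ± 1.94 CPM, 0.08, adjusted p = 0.123) and KDM1B (60.2 ± 0.759 and 60.2 ± 5.598 CPM, 0.002, adjusted p = 0.981) were not called, although FOXK1 was called higher under 7 of 15 fits (up to 0.24) and KDM1B under 1 (0.17 with TMM on well-expressed genes, adjusted p = 0.0147). ASXL3 had 83, 118 and 41 counts in shControl and 151, 133 and 107 counts in shMBD6. Its libraries did not overlap as CPM, but the fit made no call (log2 change 1.01, SE 0.58, adjusted p = 0.169), except when only these 2 groups were fitted (1.02, adjusted p = 0.0149). The split of calls moved with scaling, to 2 higher and 4 lower with total gene counts and to 3 and 3 with TMM on well-expressed genes.

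The same label was then compared in TET2 KO cells, where MBD6 RNA did not fall. Of the 9 genes 7 were called between the libraries labelled shMBD6 and shControl, 2 higher and 5 lower, beside 36.4% of all genes, 15.7% higher and 20.6% lower, and 71% of well-expressed genes. The median of the 9 was -0.18, beside -0.07 over all genes. BAP1 and OGT were the 2 that were higher. BAP1 was at 23.4, 18.7 and 20.4 CPM in TET2 KO shControl and at 34.1, 29.4 and 29.3 CPM in those labelled shMBD6 (log2 change 0.57, SE 0.08, adjusted p = 1.34e-06). OGT was at 1014, 994.8 and 1013 CPM and at 1407, 1395 and 1364 CPM (0.46, SE 0.02, adjusted p = 1.21e-18). Both genes were without overlap between the groups, as were 43.8% of all genes tested and 74.6% of well-expressed genes. Both were called under 15 of 15 fits.

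Lower in the libraries labelled shMBD6 were ASXL2 (325.7 ± 3.17 to 286.5 ± 1.98 CPM, -0.18, adjusted p = 2.51e-06), FOXK1 (151.9 ± 2.22 to 125.1 ± 5.52 CPM, -0.28, adjusted p = 9.75e-07) and KDM1B (70.6 ± 2.68 to 59.6 ± 3.32 CPM, -0.24, adjusted p = 0.000635). HCFC1 was at 88.5, 91.0 and 83.1 CPM in shControl and at 73.1, 79.9 and 73.3 CPM in those with the shMBD6 label, without overlap (-0.21, SE 0.05, adjusted p = 0.000696). When scaled by total gene counts, ASXL2, HCFC1 and KDM1B stayed below 0 without a call (-0.06, -0.09 and -0.12). ASXL1 (242.7 ± 5.01 and 240.2 ± 5.68 CPM) and FOXK2 (233.6 ± 4.14 and 223.6 ± 7.44 CPM) were not called, and both turned to positive values when scaled by total gene counts (0.11, called, and 0.06). That scaling gave 3 members higher and 2 lower. ASXL3 had 2, 22 and 21 counts in shControl and 0, 6 and 2 counts in the libraries labelled shMBD6. At these counts its fitted log2 change (-2.52, SE 0.81, adjusted p = 0.0139) lost its call without TET2 KO shControl replicate 2 (-1.94) or without shMBD6 replicate 1 (-1.98) or 3 (-2.297).

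The TET2 genotypes were compared next under each shRNA label. Under shControl, 8 of the 9 were called between TET2 KO and TET2 WT, 3 higher and 5 lower, beside 45.8% of all genes, 23.5% higher and 22.3% lower, and 77% of well-expressed genes. The 5 lower include ASXL3, which passed the count filter through the TET2 WT libraries. Its part in this count was therefore not independent of that filter. The median of the 9 was -0.08, beside -0.05 over all genes. BAP1 was lower in TET2 KO (28.3 ± 1.21 and 20.9 ± 2.40 CPM, log2 change -0.44, SE 0.08, adjusted p = 5.18e-05). OGT (1136 ± 5.86 and 1007 ± 10.8 CPM, -0.17, adjusted p = 1.34e-08) and HCFC1 (100.2 ± 5.26 and 87.6 ± 4.04 CPM, -0.20, adjusted p = 0.00136) were lower as well, in all 3 cases without overlap. In this comparison the libraries did not overlap for 56.1% of all genes tested and 81.1% of well-expressed genes. KDM1B (0.23, adjusted p = 0.000821), FOXK1 (0.19, adjusted p = 0.000172) and ASXL2 (0.12, adjusted p = 0.00105) were higher. ASXL1 was lower by a small margin (-0.08, adjusted p = 0.0279), a call lost without any one of the 3 WT libraries or KO replicate 2 (-0.09 to -0.06). FOXK2 was not called (0.01, adjusted p = 0.828). With scaling by total gene counts 0 members were called higher and 7 lower, ASXL2 (-0.06) and FOXK2 (-0.17) among them, while KDM1B and FOXK1 were at 0.05 and 0.02 without a call.

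Under the shMBD6 label 7 of the 9 were called between the genotypes, 4 higher and 3 lower in TET2 KO, beside 58.6% of all genes, 30.1% higher and 28.5% lower, and 81.5% of well-expressed genes. The 3 lower again include ASXL3, for which the same limit of the count filter holds. The median of the 9 was 0.07, beside -0.03 over all genes and 0.22 over well-expressed genes. BAP1 (19.6 ± 0.991 and 30.9 ± 2.78 CPM, 0.66, SE 0.08, adjusted p = 4.68e-08) and OGT (960.6 ± 1.79 and 1389 ± 22.1 CPM, 0.53, SE 0.02, adjusted p = 1.13e-20) were now higher in TET2 KO. HCFC1 had the largest fall of the well-counted members (109.5 ± 6.89 and 75.4 ± 3.89 CPM, -0.54, SE 0.05, adjusted p = 3.75e-11). FOXK1 was lower too (-0.17, adjusted p = 0.000863), ASXL1 was higher (0.20, adjusted p = 1.05e-06) and ASXL2 higher (0.12, adjusted p = 0.000698). The 2 ASXL calls depended on scaling, since with TMM on well-expressed genes ASXL1 was at -0.02 without a call and ASXL2 was called lower (-0.10). The split was 2 higher and 5 lower with total gene counts, 2 and 6 with TMM on well-expressed genes, and 3 and 4 with DESeq2. FOXK2 (0.07, adjusted p = 0.0777) and KDM1B (-0.02, adjusted p = 0.833) were not called. Both depended on the fit. KDM1B was called lower with total gene counts (-0.16), with TMM on well-expressed genes (-0.23) and with DESeq2 (-0.14) or its size factors. FOXK2 was called lower with total gene counts (-0.08) and with TMM on well-expressed genes (-0.15), but higher with the replicate number as a block (adjusted p = 0.0434).

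**Figure D3:**
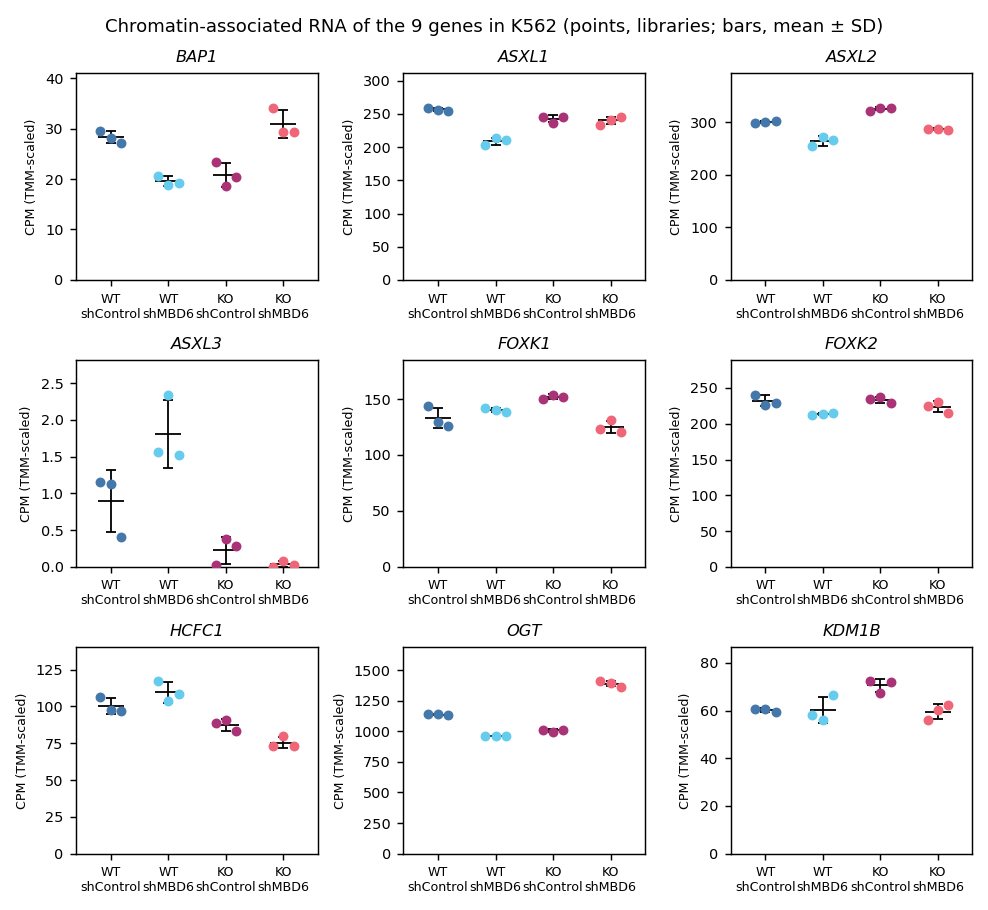
CPM of each gene in the 12 K562 libraries (points, 3 per group), with the mean and SD (bars), on axes that start at 0. BAP1 and OGT are high in TET2 WT shControl and in the TET2 KO libraries labelled shMBD6 and low in the other 2 groups, while HCFC1 and ASXL3 are lower in both TET2 KO groups.

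2 members therefore kept a called direction with the genotype under both shRNA labels and every scaling: HCFC1 and ASXL3, both lower in TET2 KO. ASXL3 counts were 41 to 151 in the 6 TET2 WT libraries and 0 to 22 in the 6 TET2 KO libraries, and no KO library reached the CPM of a WT library (at most 0.383 against at least 0.408 CPM). Its log2 changes were -2.00 (SE 0.64, adjusted p = 0.00995) under shControl and -5.53 (SE 0.79, adjusted p = 3.55e-07) under shMBD6, the first of which lost its call without TET2 KO shControl replicate 1 (-1.44). The gene passed the count filter through the TET2 WT libraries, so its call over the genotype was not independent of that filter. HCFC1 was called lower under 15 of 15 fits in both genotype comparisons. Its well-expressed neighbours within 2 Mb, 18 genes, had median log2 changes of -0.04 under shControl and -0.20 under shMBD6, against HCFC1's -0.20 and -0.54. All 87 genes tested in that window had medians of -0.21 and -0.26, so under shControl HCFC1 was near the median of its whole window.

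The test of whether the shMBD6 label acted alike in both genotypes was the interaction, the log2 change in TET2 KO minus that in TET2 WT. It was called for 7 of the 9, 3 positive and 4 negative, beside 49.4% of all genes, 23.9% positive and 25.5% negative, and 79.4% of well-expressed genes. BAP1 (1.09, SE 0.12, adjusted p = 1.71e-09), OGT (0.70, SE 0.03, adjusted p = 7.73e-20) and ASXL1 (0.28, SE 0.04, adjusted p = 1.26e-06) were positive. FOXK1 (-0.36, adjusted p = 3.09e-06), HCFC1 (-0.34, adjusted p = 9.28e-05), KDM1B (-0.25, adjusted p = 0.00968) and ASXL3 (-3.53, adjusted p = 0.00377) were negative. The median interaction was -0.19 over all genes and 0.13 over well-expressed genes. Among well-expressed protein-coding genes of like span it was 0.62 for BAP1's class and 0.24 for that of OGT, ASXL1, FOXK1 and KDM1B. It was 0.47 for HCFC1's class and -0.13 for ASXL3's. ASXL1 was thus near the median of its class. ASXL3 had 0 to 22 counts in TET2 KO libraries and passed the count filter through the TET2 WT ones. Its interaction call was therefore not independent of that filter. ASXL2 (0.002, SE 0.04, adjusted p = 0.973) and FOXK2 (0.06, SE 0.05, adjusted p = 0.325) were not called in this fit, but ASXL2 was called negative with TMM on well-expressed genes (-0.15, adjusted p = 0.000863) and with DESeq2 (-0.10, adjusted p = 0.0301). Because the TET2 KO libraries labelled shMBD6 did not have less MBD6 RNA than their control, the interaction compares labels.

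BAP1 and OGT thus had like patterns, with a Pearson correlation of log2 CPM of 0.90 over the 12 libraries, which share group and scaling. BAP1 against FOXK1 was at -0.73 and against HCFC1 at -0.52. Of 5959 genes at log2 CPM 5 or more, the 3 most like BAP1 were GPT2 (0.98), AKT2 (0.98) and HK1 (0.97). Other library measures divided the 4 groups in the same way. The mitochondrial share of gene counts was 0.0229% ± 0.000896 in TET2 WT shControl and 0.0254% ± 0.00200 in the TET2 KO libraries labelled shMBD6, where BAP1 was high, and 0.0460% ± 0.00490 with shMBD6 in WT and 0.0514% ± 0.00288 for KO shControl, where it was low. The summed level of the 8 K562 markers was also higher in the 2 groups with more BAP1, at 1029 to 1056 CPM in WT shControl, 617.9 to 632.9 with shMBD6 in WT, 503.5 to 513.9 for KO shControl and 733.9 to 751.4 in the TET2 KO libraries labelled shMBD6. Summed markers of other blood cells, led by LYZ, did not exceed 6.55 CPM in any library. The part of these measures in the BAP1 and OGT values was not tested.

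Genes of short span moved the way BAP1 did. BAP1 spans 9.001 kb, and the 153 protein-coding genes of under 10 kb at log2 CPM 5 or more had median log2 changes of -0.39 with shMBD6 in TET2 WT, 0.24 with that label in TET2 KO, -0.24 for TET2 KO under shControl and 0.32 under shMBD6. At group means of 19.6 to 30.9 CPM, BAP1 itself lies below log2 CPM 5 and is not a member of this class. In each of these comparisons BAP1 was further from 0 than the median, at -0.53, 0.57, -0.44 and 0.66. It lay between the 10th and 90th percentile of the class in 3 of them and at 0.57 beside a 90th percentile of 0.56 in TET2 KO. OGT (42.8 kb) had a class of 2537 genes of 30 to 100 kb with medians of -0.21, 0.04, 0.01 and 0.26, beside its own -0.24, 0.46, -0.17 and 0.53. HCFC1 (24.3 kb) moved against its class of 985 genes of 10 to 30 kb in 3 of the 4, with 0.13, -0.21, -0.20 and -0.54 beside medians of -0.31, 0.16, -0.15 and 0.33.

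**Figure D4:**
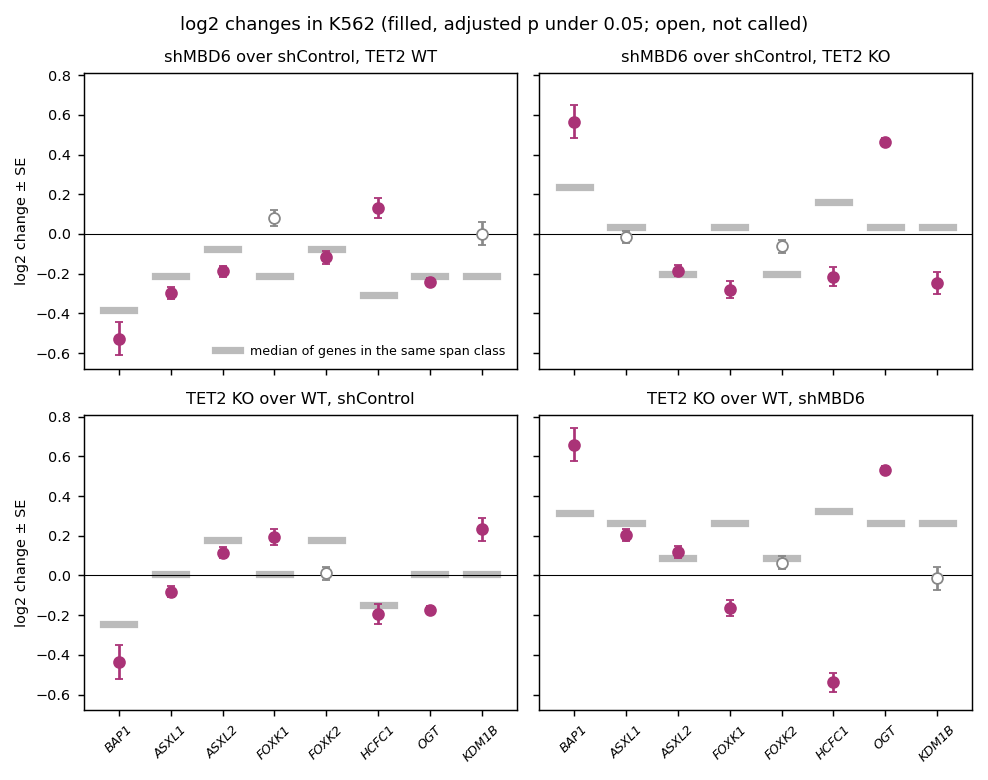
Fitted log2 change ± SE of 8 PR-DUB genes in the 4 K562 comparisons (filled, called; open, not called), beside the median of well-expressed protein-coding genes in the same class of gene span (grey bars). BAP1, which is itself below the level of well-expressed genes, lies on the side of its class median in all 4 comparisons. HCFC1 lies on the other side of 0 from its class median in 3. ASXL3, at up to 151 counts per library, is left out.

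Ratios within a library do not depend on scaling, and they separated the partners. The HCFC1/OGT count ratio was 0.0933, 0.0857 and 0.0858 in WT shControl and 0.122, 0.108 and 0.113 in TET2 WT shMBD6. It was 0.0873, 0.0915 and 0.0821 in TET2 KO shControl and 0.0520, 0.0573 and 0.0537 in the TET2 KO libraries labelled shMBD6. The last group lay below all others, at 1.07 log2 units under TET2 WT shMBD6. Over both shRNA labels the log2 ratio was 0.55 lower in TET2 KO (-3.32 and -3.86; exact permutation test within shRNA label, two-sided, p = 0.035, adjusted over 28 tests 0.156), which does not pass the threshold. The ratio was lower in TET2 KO under shMBD6, while under shControl it differed by -0.02 with overlapping libraries.

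BAP1 relative to the summed ASXL counts was 0.0528, 0.0506 and 0.0486 in WT shControl, 0.0451, 0.0385 and 0.0403 with shMBD6 in WT, 0.0414, 0.0331 and 0.0356 for KO shControl, and 0.0655, 0.0555 and 0.0554 in the TET2 KO libraries labelled shMBD6. The 3 libraries of each group thus did not overlap with their comparison group in any of the 4 comparisons, where the exact permutation p of 0.1 is the smallest possible. FOXK1/FOXK2 ranged from 0.551 to 0.595 in TET2 WT shControl and from 0.547 to 0.570 in the TET2 KO libraries labelled shMBD6, and from 0.638 to 0.668 in the other 2 groups. The ASXL1/ASXL2 log2 ratio was -0.23 in WT shControl, -0.34 with shMBD6 in WT, -0.42 for KO shControl and -0.25 in the libraries labelled shMBD6. None of the 28 ratio tests passed after adjustment, the smallest adjusted p being 0.156.

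**Figure D5:**
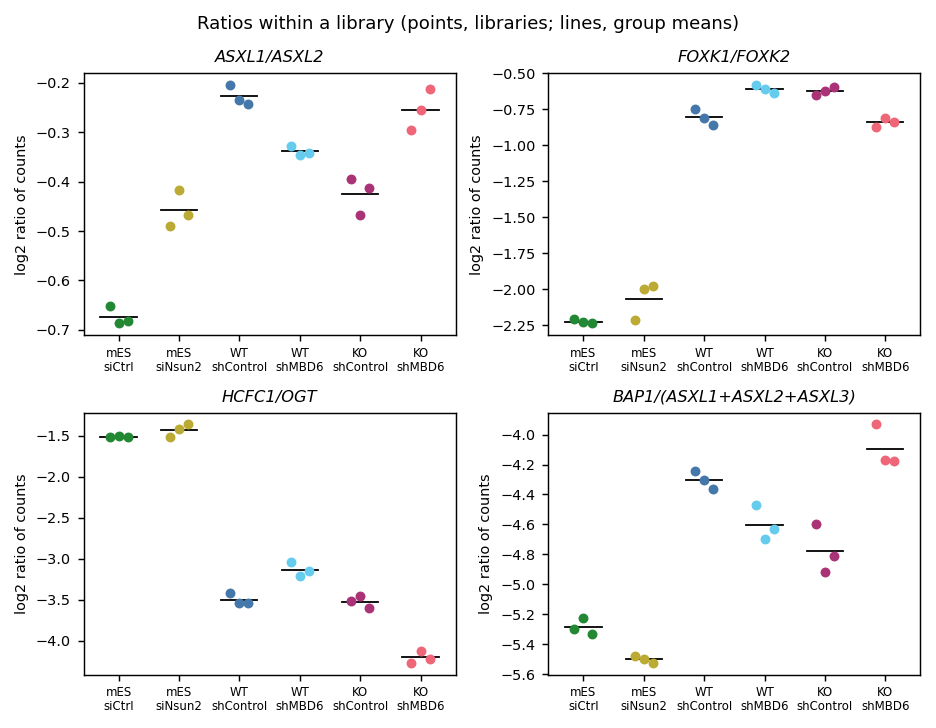
log2 ratio of counts of paired PR-DUB genes in each library (points), with group means (lines), in the 2 mES cell and 4 K562 groups. HCFC1/OGT is lowest in the TET2 KO libraries labelled shMBD6, at a mean of -4.20 against -3.13 in TET2 WT shMBD6, and BAP1 relative to its ASXL cofactors is highest there, at -4.09.

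Other genes that place or remove the H2A ubiquitin, or that act with the members, were counted from lists drawn up by role. Of 36 such genes tested in mES cells 1 was called higher and 28 lower with siNsun2, at a scaling where 78.7% of well-expressed genes were called lower. All 7 listed genes of other H2A deubiquitinases, their cofactor Wdr48 among them, were lower at TMM scaling, from -0.33 for Usp16 to -0.22 for Usp12, near the median of -0.21 over well-expressed genes. In K562 the 36 genes gave 6 higher and 21 lower with shMBD6 in TET2 WT, 6 and 13 with that label in TET2 KO, 10 and 11 for TET2 KO under shControl, and 21 and 9 under shMBD6. Of well-expressed genes, in the same order, 18.2% were higher and 59.3% lower, then 32% and 39%, 44% and 33.1%, and 64% and 17.5%. The counts here and for the single lists below are therefore not read as responses of the pathways. USP21, another H2A deubiquitinase, was at 26.4 CPM in WT shControl, 16.8 with shMBD6 in WT, 16.4 for KO shControl and 25.2 in the libraries labelled shMBD6. That is the pattern of BAP1, and USP21's interaction was 1.27 (SE 0.14, adjusted p = 1.89e-09). In its list of 7 genes the interaction was called positive for 5 and negative for 2. USP12 was among the negative ones (-0.61, adjusted p = 3.05e-10). USP3, also negative, was higher in TET2 KO under both labels (0.92 and 0.71). Of the 12 PRC1 ligase genes 7 were lower with shMBD6 in TET2 WT and 0 higher, where 59.3% of well-expressed genes were lower. The same list gave 2 higher and 6 lower for that label in TET2 KO, 2 and 3 for TET2 KO under shControl, and 6 and 3 under shMBD6. BCOR, a subunit of a variant PRC1, was at 403.8 CPM in WT shControl, 266.1 with shMBD6 in WT, 271.0 for KO shControl and 418.0 in the libraries labelled shMBD6. MBD5, which like MBD6 binds PR-DUB, was instead lower in the 2 groups with more BAP1 than in the other 2 groups, at 194.0, 300.7, 426.4 and 232.6 CPM in the same order of groups (interaction -1.51, SE 0.04, adjusted p = 1.08e-23). In the pathway that makes the sugar donor of OGT, GFPT1 was higher in TET2 KO than in TET2 WT under shControl (402.3 and 555.0 CPM, log2 change 0.46, adjusted p = 1.86e-16), but was not called under shMBD6 (0.05, adjusted p = 0.0957). Of the 5 genes of this list, GFPT1 among them, 2 were higher and 1 lower under shControl, and 3 were higher and 1 lower under shMBD6.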

How the data were processed

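Gene-level read counts of chromatin-associated RNA were deposited by the authors as whole-number counts per gene, 1 table per library. Per the labels and methods, nuclei were fractionated, rRNA depleted and stranded libraries made. The submitters' processing notes name Trimmomatic 0.39, HISAT2 2.2.1 and HTSeq 0.12.4 with mm10 and hg38. The tables hold no ERCC spike-in rows, so the study's spike-in scaling could not be repeated. Symbols and coordinates came from GENCODE v44 and vM21 (99.2% and 99.9% of IDs matched). Genes nested in another gene on the same strand are nearly all at 0 (95.7% human, 99.8% mouse), so whole gene spans were counted by strand.

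Counts passing filterByExpr (minimum 10) were scaled by TMM and tested with edgeR 4.0.16 (quasi-likelihood, two-sided, Benjamini-Hochberg over all genes, called under 0.05), with K562 groups in 1 fit. DESeq2 1.42.0 was an alternative. Ratios used counts plus 0.5 and exact permutation tests (SciPy 1.17.1). Replicate pairs differed beyond sampling noise (chi-square per degree of freedom 3.87 to 14.1). The edgeR script was tested on simulated data. Every member was named. The 3 genes most correlated with BAP1 were named by rule, while Usp16, Usp12, Wdr48, USP21, USP12, USP3, BCOR, MBD5 and GFPT1 were chosen after their values were seen. The members and lists were chosen with earlier results of these data known. The single Pspc1 WT library entered no comparison.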

Additional observations from a re-analysis of the deposited data

Results flagged for a closer look

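For 7 members the response to the shMBD6 label differed between the TET2 genotypes by the interaction test. The same test called 49.4% of all genes tested and 79.4% of well-expressed genes, so this count does not stand out from well-expressed genes. The log2 change in TET2 KO minus that in TET2 WT was 1.094 for BAP1, 0.705 for OGT and 0.283 for ASXL1, and it was -3.529 for ASXL3, -0.359 for FOXK1, -0.344 for HCFC1 and -0.247 for KDM1B. ASXL3, with 0 to 22 counts in TET2 KO libraries, passed the count filter through the TET2 WT ones, so its call was not independent of it. MBD6 RNA was not lower in the TET2 KO libraries with that label, and the mitochondrial share of counts went from 0.0514% ± 0.00288 to 0.0254% ± 0.00200 between the TET2 KO groups and from 0.0229% ± 0.000896 to 0.0460% ± 0.00490 between the TET2 WT groups (SD, n = 3); their part in these differences was not tested. KDM1B's call was lost without TET2 WT shMBD6 replicate 3 (-0.167, adjusted p = 0.0762).

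A single mES cell library from Pspc1 WT cells, which entered no comparison, lay above all 3 siControl libraries for 5 members when scaled by total gene counts. Bap1 was at 31.69 CPM there against 18.81 to 20.04 in siControl, Hcfc1 at 193.7 against 130.4 to 132.5, Ogt at 478.5 against 372.4 to 380.2, Asxl2 at 477.6 against 430.1 to 443.5 and Foxk1 at 36.62 against 34.26 to 35.34. There is 1 such library, so these differences were not tested. The share of all genes outside the siControl range is not given here, so the number of members is not read as a result about them.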

How the results depend on the processing

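The number of members called stayed within 1.5 times its first value under every setting run. Several directions turned with the scaling. In mES cells the log2 change with siNsun2 became 0.165 for Asxl1, 0.072 for Foxk2, 0.088 for Hcfc1 and 0.006 for Ogt with total gene counts, and 0.193, 0.1, 0.116 and 0.034 with TMM on well-expressed genes. Foxk1 was at -0.007 with DESeq2 and with its size factors, and Asxl1 was at 0.041 with a minimum count of 50. In K562, TMM on well-expressed genes put FOXK2 at 0.047 with shMBD6 in TET2 WT, at -0.051 for TET2 KO under shControl, at -0.152 under shMBD6 and at -0.101 in the interaction. It also put ASXL2 at -0.099 for TET2 KO under shMBD6 and at -0.154 in the interaction, and ASXL1 at -0.016 under shMBD6. Total gene counts put ASXL1 at 0.11 and FOXK2 at 0.063 for the shMBD6 label in TET2 KO, ASXL2 at -0.062 and FOXK2 at -0.167 for TET2 KO under shControl, and ASXL2 at -0.03 and FOXK2 at -0.083 under shMBD6. DESeq2, and its size factors in edgeR, put FOXK2 at -0.011 under shControl, ASXL2 at -0.002 and FOXK2 at -0.054 under shMBD6, and ASXL2 at -0.096 and FOXK2 at -0.043 in the interaction. Of the interaction values of ASXL2, those with TMM on well-expressed genes (adjusted p = 0.000863) and with DESeq2 (adjusted p = 0.0301) passed the threshold. A minimum count of 50 put FOXK2 at -0.013 under shControl and -0.011 under shMBD6, and ASXL2 at -0.051 in the interaction. With no filter ASXL1 was at 0.034 for the shMBD6 label in TET2 KO, and in the interaction ASXL2 was at -0.053 and FOXK2 at -0.001. Fitting only the groups compared put ASXL1 at 0.033 for that label in TET2 KO, and FOXK2 at -0.005 under shControl and -0.004 under shMBD6; ASXL3 was not tested there in TET2 KO. The cause was not tested for any of these.

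Leaving out each library in turn gave ranges on both sides of 0 for values near 0: KDM1B with shMBD6 in TET2 WT (-0.078 to 0.047) and for TET2 KO under shMBD6 (-0.061 to 0.063), ASXL1 for that label in TET2 KO (-0.034 to 0.003), FOXK2 for TET2 KO under shControl (-0.007 to 0.036) and ASXL2 in the interaction (-0.022 to 0.025). The same held for the differences of log2 ratios FOXK1/FOXK2 with shMBD6 within genotype (-0.024 to 0.004), HCFC1/OGT for TET2 KO under shControl (-0.059 to 0.019) and BAP1 to summed ASXL for TET2 KO within shRNA label (-0.026 to 0.054). The widest range was that of ASXL3 for the shMBD6 label in TET2 KO, from -3.848 without TET2 KO shMBD6 replicate 2 to -1.94 without TET2 KO shControl replicate 2.

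With the replicate number as a block, KDM1B was at -0.001 with shMBD6 in TET2 WT and FOXK2 gained a call for TET2 KO under shMBD6 (0.065, adjusted p = 0.0434, 8 members called in place of 7); the block changed no other call. Deviations of the 3 same-numbered pairs of TET2 WT shControl and TET2 WT shMBD6 libraries correlated at 0.177 to 0.441. Replicates 2 and 3 correlated as well across numbers, at 0.193 (shControl 2 with shMBD6 3) and 0.198 (shControl 3 with shMBD6 2). Only replicate 1 stood apart, so a pairing by number was not shown. The block left all calls between these 2 groups as they were. In each other pair of K562 groups 2 of 3 correlations exceeded 0.1, over a range of -0.084 to 0.358, and 8 of 12 libraries correlated best with their own number, a hint from the data and not from the design. In mES cells they were -0.038 to 0.024, and 1 of 6 libraries correlated best with its own number. Of 791 values for single members under other settings, 54 changed sign, 46 lost a call (7 of them with a changed sign) and 27 gained one (8 of them with a changed sign), and 679 kept direction and side of the threshold. ASXL3 in K562, at 0 to 151 counts, is the member whose depth limits its values.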

Other observations

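In the same Pspc1 WT library Foxk2 (111.6 CPM), Asxl3 (22.7 CPM) and Asxl1 (268.8 CPM) lay below all 3 siControl libraries, whose lowest values were 160.7, 36.9 and 272.5 CPM. Kdm1b was within their range at 46.6 CPM. The library had 91990658 gene counts, 10.7% of reads outside genes and a mitochondrial share of 0.0969%. In siControl these 2 shares were 19.9% ± 0.345 and 1.195% ± 0.0233 (SD, n = 3). Their part in these values was not tested, and the share of all genes below the siControl range is not given here.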
